A study of Mus musculus with 20 samples.

Results

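Mesp1, Mesp2, Ripply1, Ripply2, Tbx18, Tcf15, Meox1, Meox2, Uncx and Foxc2, genes that mark the somite boundary and the young somite, were followed through 20 RNA-seq libraries of mouse cells. They were chosen by name, with earlier results of these data known: the 10 symbols were looked up among the 55421 transcripts of each count table, and each matched 1 row. Of the 20 libraries, 10 came from embryonic stem cells (ESC) of the KY1.1 line and 10 from induced presomitic mesoderm (iPSM) colonies, grown from E14TG2a ESC that carry a luciferase reporter under the Hes7 promoter. The study asked what forced expression of the circadian factors CLOCK and BMAL1 does to these cells, iPSM being a culture model of the tissue in which the segmentation clock runs.

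The groups were the same in both cell types. A control line gave 1 library without and 1 with doxycycline (dox). Clones with dox-inducible (tetO) Clock and Bmal1 gave 2 untreated and 2 dox libraries, the ESC clones being 1 and 7 and the iPSM clones 12 and 20. Clones with tetO Clock and Bmal1DN, a dominant-negative form of Bmal1, also gave 2 of each, numbered 5 and 6 for ESC and 7 and 19 for iPSM. Dox was given at 500 ng/mL for 6 hours to ESC and at 1000 ng/mL for 2 hours to iPSM, so parental line, dose and time all change with the cell type and cannot be told apart from it. Each replicate is 1 clone, and no label says that a clone was cultured more than once.

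Somites bud off from the presomitic mesoderm in the order set by the segmentation clock. At the front of that tissue Tbx6 and Notch signalling switch on Mesp2, a bHLH factor that sets the position of the next boundary, and Mesp2 in turn induces Ripply1 and Ripply2, small proteins that bring Groucho/TLE corepressors to T-box factors and so shut off Tbx6 and Mesp2. The new somite then turns on Tcf15 (paraxis), Meox1, Meox2 and Foxc2, and acquires a front compartment marked by Tbx18 and a rear compartment marked by Uncx.

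The libraries held 38.2 to 57.3 M (mega) gene-body counts, and both induced genes were higher with dox than without in every tetO clone. Counts over Clock, the transgene's included, stood at 31.0 to 103 CPM (counts scaled to 1 M counts of the library after TMM normalisation) in the 12 libraries without induction and at 362 to 2277 CPM in the 8 dox libraries of the tetO clones. Counts over Arntl, the mouse symbol of Bmal1, rose less in 1 iPSM library than in the others: in ClockBmal1DN clone 19 they went from 60.8 to 141 CPM, against 38.3 to 819 CPM in clone 7. The 10 presomitic mesoderm markers summed to 835 to 1555 CPM in iPSM and 35.5 to 152 CPM in ESC, and the 8 stem cell markers to 167 to 335 and 1346 to 2088 CPM. The untreated iPSM control library stood apart, with reads on 69.4% of transcripts against 43.8 to 54.0% in the other 19.

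Ripply2 was the member that moved with Clock/Bmal1, so the 250 bases before its start are shown beside those of its paralogue Ripply1 and of Mesp2, which did not pass. RefSeq (GRCm38.p6, the same build as the mm10 tables) held such a window for 7 of the 10 members; Tcf15, Meox1 and Foxc2 were not matched. Capitals mark the E-box core CANNTG, which CLOCK and BMAL1 as well as MESP proteins can bind in some forms, and the T-box core GTGTGA. Each was searched on both strands, so the T-box core can also stand as TCACAC.
Ripply2: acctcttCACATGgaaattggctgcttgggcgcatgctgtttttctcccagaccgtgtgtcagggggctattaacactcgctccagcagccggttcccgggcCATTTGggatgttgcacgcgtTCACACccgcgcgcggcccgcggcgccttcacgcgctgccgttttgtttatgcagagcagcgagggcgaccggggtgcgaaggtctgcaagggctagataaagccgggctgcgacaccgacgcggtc
Ripply1: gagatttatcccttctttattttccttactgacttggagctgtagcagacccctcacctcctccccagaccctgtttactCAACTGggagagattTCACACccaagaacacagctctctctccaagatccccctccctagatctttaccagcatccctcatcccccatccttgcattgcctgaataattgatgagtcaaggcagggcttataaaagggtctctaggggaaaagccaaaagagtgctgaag
Mesp2: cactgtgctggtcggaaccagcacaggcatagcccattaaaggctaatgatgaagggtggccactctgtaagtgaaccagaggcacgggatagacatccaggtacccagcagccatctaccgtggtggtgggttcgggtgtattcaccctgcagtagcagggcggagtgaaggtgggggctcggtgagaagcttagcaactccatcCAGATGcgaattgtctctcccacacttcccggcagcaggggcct
The Ripply2 window is chr9:87015287-87015536 on the plus strand, the Ripply1 window chrX:139782354-139782603 on the minus strand and the Mesp2 window chr7:79810477-79810726 on the plus strand. Ripply2 held CANNTG cores that began 243 and 148 bases before the start, Ripply1 held 1 at 170 bases and Mesp2 held 1 at 44 bases. A T-box core, read as TCACAC, lay 127 bases before the start of Ripply2 and 155 bases before that of Ripply1, and none of the other 5 windows had one. The canonical circadian E-box CACGTG, which is 1 form of CANNTG, was in none of the 7 windows. Over all 32851 promoter windows of this length, 66.2% held CANNTG, 12.3% held the T-box core and 6.02% held CACGTG, and its absence from these windows says only that the letters are not there.

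Between genes, levels can be set side by side only per length, as the authors' RPKM, which divides by the whole gene body with its introns. That scale puts long genes such as Meox2 (a gene body of 70994 bases for a transcript of 2357) below short ones such as Foxc2 (2724 bases, no intron). In the 8 clone libraries of ESC, Tcf15 had a median RPKM of 4.01 (2.69 to 5.54) and Ripply1 of 1.12 (0.341 to 1.68), ranges that did not overlap. Foxc2 (0.242), Mesp2 (0.226), Tbx18 (0.0715) and Mesp1 (0.0371) followed with ranges that each overlapped the next, and the other 4 were lower. In iPSM, Tcf15 was again first with a median RPKM of 0.602 (0.451 to 0.790), above the range of Mesp1 (0.176, 0.0769 to 0.255) in second place. The order below Mesp1 ran Ripply1 (0.133), Mesp2 (0.0460), Ripply2 (0.0347), Meox1, Foxc2, Uncx, Tbx18 and Meox2, each range overlapping the next. Ripply2 had the widest range in iPSM, from 0.00469 to 0.857.

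**Figure D1:**
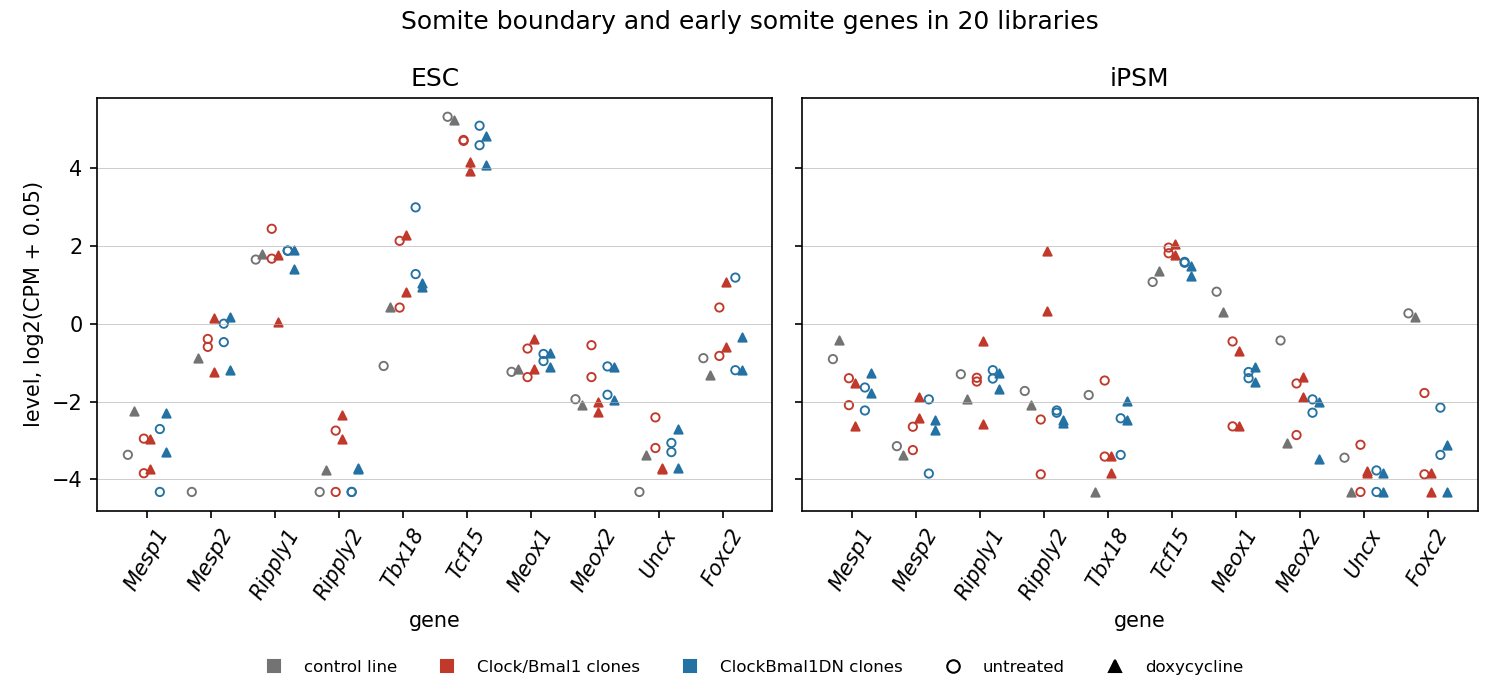
Level of each of the 10 genes in each library, as log2(CPM + 0.05), in ESC (left) and iPSM (right). Each point is 1 library, colours give the line, open circles untreated and filled triangles dox; Tcf15 is the highest gene in ESC, and in iPSM the 2 dox libraries of Clock/Bmal1 clones lift Ripply2 to 1.20 and 3.59 CPM.

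In iPSM, dox in the Clock/Bmal1 clones raised Ripply2 and no other member past the test. Ripply2 (ENSMUST00000058846.10, mm10 chromosome 9, 87015537 to 87019917, plus strand) went from 0.0185 to 1.20 CPM in clone 12 and from 0.132 to 3.59 CPM in clone 20, or from 1 to 54 and from 6 to 182 counts. In the control line the untreated library had 0.252 CPM and the dox library 0.187, and ClockBmal1DN clones 7 and 19 had 0.164 and 0.155 untreated and 0.121 and 0.131 with dox. Both treated Clock/Bmal1 libraries therefore lay above all 8 other iPSM libraries, whose highest value was that of the untreated control line. The higher of the pair, clone 20, was also the library with more Clock (2277 against 1620 CPM) and Arntl (4336 against 2978 CPM), a pair of points from which no relation was computed.

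The fitted log2 fold change of Ripply2 was 5.01 ± 0.737 (SE, n = 2 clones, 95% interval 3.38 to 6.63; edgeR quasi-likelihood test, adjusted p = 0.00667), with 4.31 and 4.36 in clones 12 and 20 when counts are offset by 2. As pooled counts, 236 with dox stood against 7 without, a ratio of 35.1 (exact 95% interval 16.8 to 88.3, counting error only). The size rests on few untreated reads: leaving out untreated clone 12, the pooled ratio was 18.7 (8.48 to 51.5), and leaving out untreated clone 20 it was 134 (23.7 to 5298). Of 9 alternative fits Ripply2 passed in 8, with log2 fold changes of 4.0 to 6.81 and adjusted p-values of 5.82e-15 to 0.121; the call was lost without treated clone 20 (4.0, edgeR adjusted p = 0.121). Among the 24805 genes tested, 254 (1.02%) passed, 247 of them higher (0.996%) and 7 lower (0.0282%). Ripply2 ranked 30th of the 247 by log2 fold change and 108th by the p-value of the edgeR test. Of the 9 members tested, 1 passed; the median over these 9 was 0.01 on the log2 scale, against -0.02 over all genes tested. Uncx had too few reads to be tested.

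Genes beside Ripply2 on chromosome 9 gave no call. Of 22 transcripts within 500 kb on either side, 15 were tested and none passed with edgeR, with log2 fold changes of -1.55 to 2.34. The ends of that range are Mrap2 and Gm37941, at means of only 0.122 and 0.140 CPM in iPSM. Over all genes tested 1.02% passed, so no call among 15 is not particular to this stretch. The next gene downstream on the same strand, Cyb5r4, a cytochrome b5 reductase that starts 2097 bases past the end of Ripply2, had a value of -0.06 at a mean of 96.2 CPM in iPSM.

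**Figure D2:**
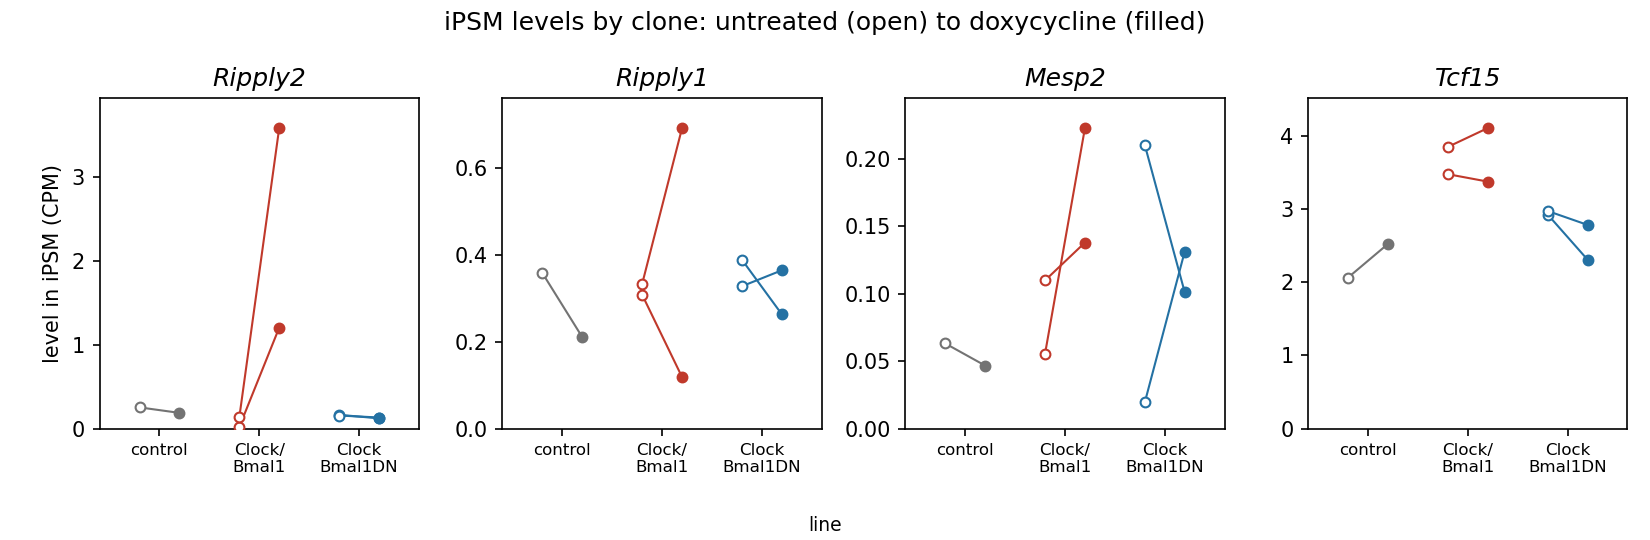
Levels of Ripply2, Ripply1, Mesp2 and Tcf15 in the 10 iPSM libraries, in CPM on a linear axis that starts at 0 and differs between panels; lines join the untreated (open) and dox (filled) library of 1 clone or of the control line. Ripply2 climbs in both Clock/Bmal1 clones, while in the same clones Ripply1 and in the ClockBmal1DN clones Mesp2 go in opposite directions.

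Ripply1 (ENSMUST00000101217.3, chromosome X, 139779549 to 139782353, minus strand), the paralogue of Ripply2, did not follow it. It went from 0.333 to 0.691 CPM in clone 12 and from 0.308 to 0.118 CPM in clone 20, against 0.358 and 0.210 CPM in the control line and 0.263 to 0.388 CPM in the ClockBmal1DN clones. The clones moved in opposite directions, and the fitted log2 fold change was 0.30 ± 0.687 (SE, n = 2 clones, 95% interval -1.22 to 1.81; edgeR adjusted p = 1).

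Of the upstream bHLH pair, Mesp2 (ENSMUST00000107394.2, chromosome 7, 79810727 to 79813439, plus strand) had 3 and 5 untreated counts and 10 and 7 dox counts in clones 12 and 20. That is 0.0555 and 0.110 CPM without and 0.223 and 0.138 CPM with dox, higher with dox in both clones, yet untreated ClockBmal1DN clone 7 reached 0.210 CPM. Its log2 fold change was 1.1 ± 1.04 (SE, n = 2 clones, 95% interval -1.19 to 3.39; edgeR adjusted p = 1), an interval that holds no change as well as a rise of several fold. Mesp1 (ENSMUST00000032760.5, chromosome 7, 79792241 to 79793788, minus strand), which marks early mesoderm and overlaps in function with Mesp2, went from 0.185 to 0.111 CPM in clone 12 and from 0.330 to 0.296 CPM in clone 20. Its log2 fold change was -0.32 ± 0.641 (SE, n = 2 clones, edgeR adjusted p = 1).

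Tcf15 (ENSMUST00000089112.5, chromosome 2, 152143561 to 152149097, plus strand), the bHLH factor that keeps somites epithelial, was the member measured most precisely in iPSM. It stood at 3.85 CPM untreated and 4.10 CPM with dox in clone 12, and at 3.47 and 3.37 CPM in clone 20. Its log2 fold change was 0.01 ± 0.243 (SE, n = 2 clones, 95% interval -0.52 to 0.55; edgeR adjusted p = 1). By the smallest root-mean-square difference of centred log2 CPM over the 10 iPSM libraries, the genes closest to its profile were Rec114 (0.0892), Galnt12 (0.102) and Nfkb2 (0.120). Over the 8 clone libraries 2 of these 3 remained (Rec114 and Galnt12) beside Gaa (0.0926).

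The homeobox genes Meox1 and Meox2, which act together in sclerotome and muscle formation, had clone by clone changes with no common sign. Meox1 (ENSMUST00000057054.7, chromosome 11, 101877510 to 101894374, minus strand) stayed at 0.111 CPM in clone 12 and went from 0.681 to 0.572 CPM in clone 20. Meox2 (ENSMUST00000041183.6, chromosome 12, 37108540 to 37179534, plus strand) went from 0.296 to 0.223 and from 0.0879 to 0.335 CPM. Its gene body shares a stretch with Gm48617 on the same strand, so part of its reads could belong to either. Neither passed.

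Tbx18, the anterior-compartment T-box factor, and Foxc2, a forkhead factor of paraxial mesoderm, had fewer reads with dox, but from very small counts. Tbx18 (ENSMUST00000034991.7, chromosome 9, 87702800 to 87731260, minus strand) went from 17 to 2 counts in clone 12 and from 2 to 1 in clone 20, a pooled ratio of 0.165 (exact 95% interval 0.0312 to 0.559, counting error only). Foxc2 (ENSMUST00000054691.7, chromosome 8, 121116171 to 121118895, plus strand) went from 1 to 0 and from 11 to 1, a pooled ratio of 0.0868 (0.00203 to 0.587). In each gene 1 clone carried nearly all untreated reads, and neither passed (edgeR adjusted p = 0.984 for Tbx18 and 0.998 for Foxc2). Foxc2 lies within Gm20388 on the same strand, so its reads are also not its own with certainty. Uncx (ENSMUST00000172997.2, chromosome 5, 139543494 to 139548179, plus strand), the posterior-compartment homeobox gene, had 0 to 3 counts in every iPSM library, at or under the floor of 3 counts.

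The ClockBmal1DN clones did not show the rise of Ripply2. In iPSM they went from 7 to 6 counts in clone 7 and from 8 to 6 in clone 19, a log2 fold change of -0.33 ± 0.814 (SE, n = 2 clones, 95% interval -2.13 to 1.46; edgeR adjusted p = 1). Clone 19 is the library in which Arntl rose little, and clone 7, with 819 CPM of Arntl, had 0.121 CPM of Ripply2 with dox. None of the 9 tested members passed with edgeR, none had an unadjusted p under 0.05 and none passed with DESeq2. Over all genes 1 of 24805 passed with edgeR (0.00403%), and 159 had an unadjusted p under 0.05. Tcf15 went from 2.92 to 2.31 and from 2.97 to 2.78 CPM (log2 fold change -0.22 ± 0.247, SE, n = 2 clones). Foxc2 had fewer reads with dox in both of these clones too, from 2 to 0 counts in clone 7 and from 9 to 3 in clone 19 (-1.77 ± 1.35, SE, n = 2 clones, edgeR adjusted p = 1), and its difference between the 2 kinds of clone was -1.53 ± 2.25 (SE, edgeR adjusted p = 1).

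Whether dox acted differently in the 2 kinds of clone was tested directly. Induction differed as well: with dox, Arntl was 2978 and 4336 CPM in the Clock/Bmal1 clones and 819 and 141 CPM in the ClockBmal1DN clones, and Clock was 1620 and 2277 against 944 and 974.9 CPM. The form of Bmal1 and these levels cannot be told apart in this difference. For Ripply2 the Clock/Bmal1 effect minus the ClockBmal1DN effect was 5.34 ± 1.12 on the log2 scale (SE, 95% interval 2.87 to 7.81), at an unadjusted p of 0.000585 and an edgeR adjusted p of 0.129, so the difference did not pass over all genes. With the clone as a block, which pairs the dox and untreated library of a clone, it was 5.36 and passed (edgeR adjusted p = 0.00783), as it did with DESeq2 (5.38, adjusted p = 0.00656) and with no filter on low counts (5.35, edgeR adjusted p = 9.11e-07). It also passed without treated clone 12 (5.92, edgeR adjusted p = 0.0316) and without untreated clone 20 (7.15, edgeR adjusted p = 0.0441), and over the leave-one-out fits the value lay between 4.33 and 7.15. Ripply2 was the single member with an unadjusted p under 0.05, beside 856 of the 24805 genes tested. Over all genes 69 of 24805 (0.278%) passed, 0 of the 9 tested members among them with edgeR and 1, Ripply2, with DESeq2. For Tcf15 the difference was 0.23 ± 0.347 (SE, 95% interval -0.53 to 0.99). Before dox, the Clock/Bmal1 and ClockBmal1DN clones of iPSM differed in none of the 24805 genes with edgeR (0%; 1190 at an unadjusted p under 0.05, and 25 with DESeq2), no member among any of these.

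**Figure D3:**
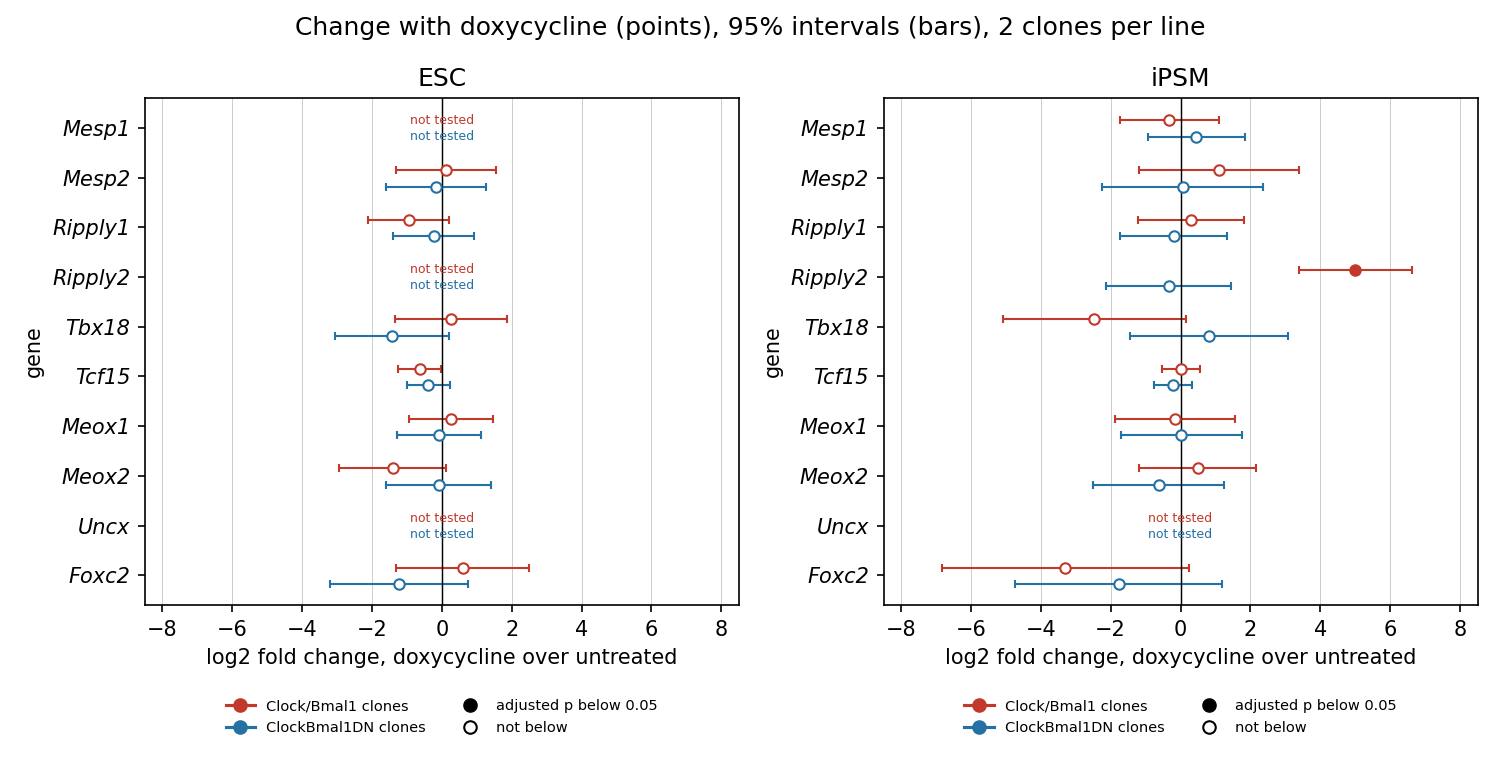
Log2 fold change with dox in ESC (left) and iPSM (right) for Clock/Bmal1 (red) and ClockBmal1DN clones (blue), with 95% intervals from the edgeR fit, n = 2 clones each. Filled points passed at an adjusted p of 0.05; Ripply2 in the Clock/Bmal1 clones of iPSM is the only filled one, at 5.01, and genes with too few reads are written as not tested.

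Around these genes, few members of the pathway passed in the Clock/Bmal1 clones of iPSM. Of 17 genes upstream of Mesp2 or of the presomitic mesoderm, 1 rose, 0 fell and 16 did not pass: Lfng, the glycosyltransferase that modulates Notch, went from 7.17 to 43.8 and from 19.1 to 90.4 CPM (log2 fold change 2.35 ± 0.432, SE, edgeR adjusted p = 0.0253). Tbx6, which drives Mesp2 and is held down by Ripply proteins, was 19.7 and 50.6 CPM untreated and 12.8 and 31.7 CPM with dox, and did not pass. Of 14 boundary effectors, 0 rose and 1 fell: Dkk1, a secreted Wnt inhibitor, went from 12.2 to 5.86 and from 20.5 to 7.26 CPM (log2 fold change -1.33 ± 0.256, SE, edgeR adjusted p = 0.0327). Of 15 tested genes of somite compartments and derivatives, 1 rose and 0 fell: Scx (scleraxis), the bHLH factor of tendon progenitors, went from 8 to 218 and from 18 to 424 counts (4.61 ± 0.488, SE, edgeR adjusted p = 0.000873). The 10 corepressors and partners, among them the Tle genes, had 0 calls with edgeR. Over all genes tested 0.996% were higher and 0.0282% lower, and a single call in a list of this size was not tested against that share. The list medians were -0.12, -0.17, -0.10 and 0.22, against -0.02 over all genes.

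Among markers of other tissues, 1 of 7 tested lateral and cardiac mesoderm genes rose: Gata5, a cardiac and endodermal zinc-finger factor, had 3 and 0 untreated and 29 and 93 dox counts in clones 12 and 20 (edgeR adjusted p = 0.0308). The summed level of that 10-gene marker list was 2.81 to 8.56 CPM over the iPSM libraries. None of the 8 neural, 4 intermediate mesoderm, 5 endoderm, 3 endothelium and 8 fibroblast markers tested passed with edgeR. Over all genes tested 0.996% were higher, and this single call was not tested against that share. Whether the rise of Gata5 bears on Ripply2 was not tested.

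In ESC no member passed in the Clock/Bmal1 clones. Ripply2, the gene that rose in iPSM, had 0 to 6 counts in every ESC library and was not tested: clone 1 had 0 untreated and 6 dox counts and clone 7 had 5 and 3. The clones moved in opposite directions, with all 5 untreated reads in clone 7, and the pooled ratio was 2.31 (exact 95% interval 0.696 to 8.78, counting error only). Mesp1, with 0 to 7 counts, and Uncx, with 0 to 7, were also left untested. None of the other 7 members passed with edgeR or DESeq2, against 95 of 22500 genes that passed with edgeR (0.422%, of which 0.404% higher and 0.0178% lower). At an unadjusted edgeR p under 0.05 there were 1686 of the 22500 genes and 1 of the 7 members.

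That 1 was Tcf15, which in ESC marks cells leaving the naive state. It went from 26.5 to 15.2 CPM in clone 1 and from 26.1 to 17.9 CPM in clone 7, so both dox libraries were below both untreated ones. The ClockBmal1DN clones went from 34.1 to 28.2 CPM (clone 5) and from 24.1 to 16.8 CPM (clone 6), and the control line from 40.1 to 37.9 CPM. In the Clock/Bmal1 clones the log2 fold change was -0.64 ± 0.274 (SE, n = 2 clones, 95% interval -1.25 to -0.02; unadjusted p = 0.0442, edgeR adjusted p = 0.653). In the ClockBmal1DN clones it was -0.39 ± 0.273 (SE, n = 2 clones, edgeR adjusted p = 0.983), and the difference between the 2 effects was -0.24 ± 0.385 (SE, 95% interval -1.11 to 0.62; edgeR adjusted p = 0.995). All 4 tetO clones thus had less Tcf15 with dox than without, none of it past the test.

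Ripply1, which ESC express at 0.988 to 5.40 CPM, went from 3.15 to 0.988 CPM in clone 1 and from 5.40 to 3.34 CPM in clone 7. The other ESC libraries held 2.61 to 3.68 CPM, and treated clone 1 was the lowest of the 10. Its log2 fold change was -0.95 ± 0.519 (SE, n = 2 clones, 95% interval -2.12 to 0.22; edgeR adjusted p = 0.705), and against the ClockBmal1DN effect it was -0.72 ± 0.729 (SE, edgeR adjusted p = 0.995). Meox2 went from 32 to 8 and from 17 to 6 counts in clones 1 and 7 (-1.40 ± 0.680, SE, n = 2 clones, edgeR adjusted p = 0.689). Mesp2 in clones 1 and 7 had 31 and 36 untreated and 15 and 40 dox counts (0.12 ± 0.634, SE, n = 2 clones, edgeR adjusted p = 0.973). Meox1 went from 30 to 16 counts in clone 1 and from 17 to 27 in clone 7. Of the pathway lists, 1 of 16 tested upstream genes rose (Lfng), 0 of 12 boundary effectors passed, 1 of 13 genes of somite compartments rose and 0 of 10 corepressors and partners passed with edgeR, against 0.404% of all genes higher and 0.0178% lower. The riser among the somite genes was again Scx, from 35 to 680 counts in clone 1 and from 68 to 456 in clone 7 (log2 fold change 3.85 ± 0.633, SE, n = 2 clones, edgeR adjusted p = 0.042).

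The rise of Ripply2 in iPSM could not be shown to differ from ESC. In a fit of all 20 libraries the iPSM effect minus the ESC effect was 3.74 ± 1.52 on the log2 scale (SE, 95% interval 0.49 to 7.00; unadjusted p = 0.0272, edgeR adjusted p = 1). It rests on the 5 reads of untreated ESC clone 7: without that library it was -0.43, from a fit in which every untreated count left for that ESC group was 0. None of 26689 genes passed this test with edgeR (0%; 1074 at an unadjusted p under 0.05), and 16 passed with DESeq2, no member among them. For Tcf15 the difference was 0.60 ± 0.351 (SE, 95% interval -0.15 to 1.34).

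In ESC, Tbx18 and Foxc2 were highest in the same 3 libraries, 2 of them untreated and 1 with dox. Tbx18 was 7.93 CPM in untreated ClockBmal1DN clone 6 and 2.04 CPM in the same clone with dox. Clone 7 of the Clock/Bmal1 line had 4.35 and 4.84 CPM, and the other 6 ESC libraries had 0.422 to 2.38 CPM. Foxc2 was 2.23 CPM in untreated clone 6 and 0.748 CPM with dox, 1.29 and 2.08 CPM in clone 7, and 0.350 to 0.617 CPM in the other 6. The 10 fibroblast markers, genes such as Col1a1, Postn and S100a4, summed to 760 CPM in untreated clone 6 and 80.8 CPM in the same clone with dox, to 372 and 317 CPM in clone 7, and to 73.7 to 147 CPM in the other 6. All 10 of them had reads in every ESC library but the untreated control, where 9 did. The part of fibroblast RNA in these values was not tested, and in such bulk samples fewer cells of a type and less RNA per cell cannot be told apart. The labels say that the E14TG2a ESC were kept without feeder cells and do not say so of the KY1.1 lines.

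In the ClockBmal1DN clones of ESC the log2 fold change was -1.43 ± 0.728 for Tbx18 and -1.23 ± 0.878 for Foxc2 (SE, n = 2 clones, edgeR adjusted p = 0.983 and 0.987). Without untreated clone 6 the value for Foxc2 turned to 0.56. Ripply1 was level in clone 5 (3.65 and 3.68 CPM) and went from 3.63 to 2.61 CPM in clone 6 (-0.23 ± 0.514, SE, n = 2 clones). None of the 7 tested members passed with edgeR or DESeq2 or had an unadjusted p under 0.05. Over all genes 1 of 22500 passed with edgeR (0.00444%), and 900 had an unadjusted p under 0.05. The same 0 of 7, by each of these counts, held for the difference between the transgenes (13 of 22500 genes, 0.0578%, and 1070 unadjusted). It also held between the untreated Clock/Bmal1 and ClockBmal1DN clones (2 of 22500, 0.00889%, and 358 unadjusted).

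**Figure D4:**
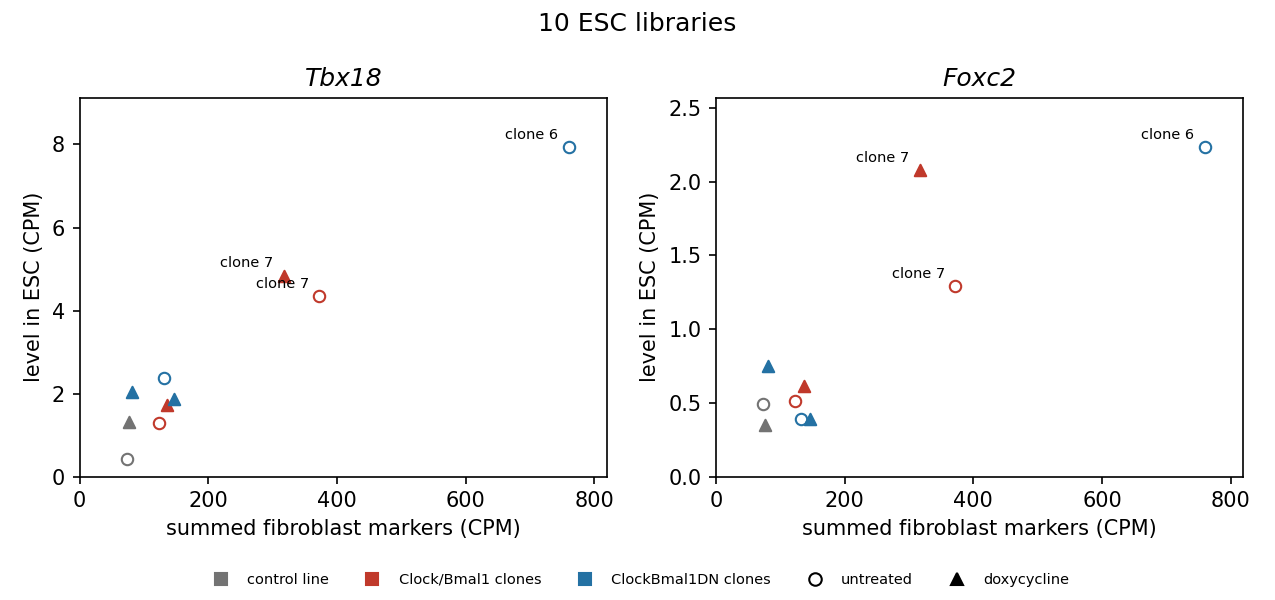
Level of Tbx18 (left) and Foxc2 (right) in the 10 ESC libraries, in CPM, against the summed CPM of the 10 fibroblast markers in the same library; colours give the line, open circles untreated and filled triangles dox. The 3 libraries with the highest marker sums, untreated clone 6 and both of clone 7, have the 3 highest levels of each gene.

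Untreated iPSM and untreated ESC clones differed in most members, and mostly towards less in iPSM. Of 9 members tested, 2 were higher in iPSM, 5 were lower and 2 did not pass, while over all 26689 genes 60% passed, 31.3% higher and 28.8% lower. Against that background the number of members called is not particular to them, and cell type and parental line cannot be told apart here. The median over the 9 members was -2.86 on the log2 scale, against 0.05 over all genes.

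Mesp1 and Ripply2 were the 2 that were higher in iPSM. Mesp1 had 7 to 15 counts (0.164 to 0.330 CPM) in the 4 untreated iPSM clones and 0 to 4 (0 to 0.103 CPM) in the ESC clones, without overlap (log2 fold change 2.26 ± 0.717, SE, n = 4 clones each, edgeR adjusted p = 0.0132). With 1 library left out it passed in all 8 fits, at 1.75 to 4.36 and adjusted p-values up to 0.0494; the value was 4.36 without ESC clone 5 and 2.85 without ESC clone 7. Ripply2 had 1, 6, 7 and 8 counts in iPSM clones 12, 20, 7 and 19, and in ESC 5 in clone 7 and 0 in clones 1, 5 and 6. As pooled counts that was 22 against 5, a ratio of 4.14 (exact 95% interval 1.53 to 14), and the fitted log2 value of 3.24 ± 1.14 (SE, edgeR adjusted p = 0.0244) has 3 of the 4 ESC values at 0. The call was lost without ESC clone 5 (edgeR adjusted p = 0.0602), without ESC clone 6 (0.0665) and without iPSM clone 20 (2.33, edgeR adjusted p = 0.19), and without ESC clone 7 the value was 5.32.

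Mesp2, Ripply1, Tcf15, Tbx18 and Foxc2 were lower in iPSM. Tcf15 was 2.92 to 3.85 CPM in untreated iPSM clones and 24.1 to 34.1 CPM in ESC clones, 8.04-fold lower (log2 fold change -3.01 ± 0.187, SE, n = 4 clones each, edgeR adjusted p = 5.67e-09). Ripply1 was 0.308 to 0.388 against 3.15 to 5.40 CPM (-3.46 ± 0.455, SE, edgeR adjusted p = 9.76e-06), opposite in direction to its paralogue. Mesp2 was 0.0194 to 0.210 against 0.614 to 0.954 CPM (-2.86 ± 0.583, SE, edgeR adjusted p = 0.000571), opposite to Mesp1, its neighbour on chromosome 7. Tbx18 was 0.0440 to 0.314 against 1.29 to 7.93 CPM (-4.75 ± 0.618, SE, edgeR adjusted p = 8.74e-06). Its value was -3.69 without ESC clones 6 and 7, the 2 with the highest fibroblast marker sums (edgeR adjusted p = 6.8e-05), and -5.76 without iPSM clone 12. For Mesp2 it was -4.04 without iPSM clone 7, and both genes passed in each of these fits. Between the untreated clones of the cell types the ranges did not overlap in these 4 genes, nor in Foxc2. How many of all genes are without overlap was not computed, so this cannot be called particular to them.

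Foxc2 was 0.0185 to 0.242 CPM in iPSM and 0.388 to 2.23 CPM in ESC (-3.10 ± 0.742, SE, n = 4 clones each, edgeR adjusted p = 0.00204), and without ESC clones 6 and 7 its value was -1.88 and no longer passed (edgeR adjusted p = 0.0567). With 1 library left out it passed but moved, to -2.21 without ESC clone 6, -3.72 without iPSM clone 19 and -4.39 without iPSM clone 20. The fibroblast marker sum was 16.3 to 26.8 CPM over the iPSM libraries, and 9 of the 10 markers were lower in iPSM. The untreated control lines, 1 library per cell type and not tested, did not all follow the clones. There Foxc2 was higher in iPSM (1.16 against 0.493 CPM), and Mesp2 had 3 counts in iPSM and 0 in ESC. Tbx18 (0.231 against 0.422 CPM), Ripply1 (0.358 against 3.10 CPM) and Tcf15 (2.06 against 40.1 CPM) were lower in iPSM there too. Meox1 (-0.32 ± 0.516, SE, edgeR adjusted p = 0.617) and Meox2 (-1.01 ± 0.519, SE, edgeR adjusted p = 0.105) did not pass. Without iPSM clone 12 Meox2 did (-1.58, edgeR adjusted p = 0.0389).

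**Figure D5:**
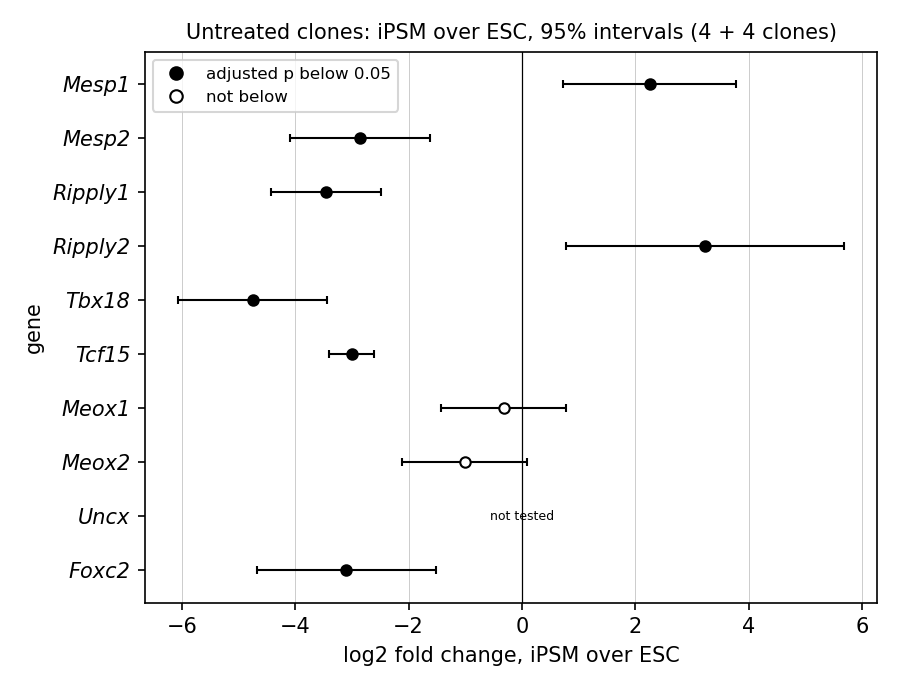
Log2 fold change of untreated iPSM over untreated ESC clones for the 10 genes, with 95% intervals from the edgeR fit (n = 4 clones each); filled points passed at an adjusted p of 0.05. Mesp1 (2.26) and Ripply2 (3.24) lie to the right, Mesp2, Ripply1, Tbx18, Tcf15 and Foxc2 to the left, and Uncx had too few reads.

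The genes that act before the boundary stood the other way, beside 31.3% of all genes higher and 28.8% lower in iPSM. Of 17 genes upstream of Mesp2 or of the presomitic mesoderm, 14 were higher in iPSM, 0 lower and 3 did not pass, with a median of 4.89 on the log2 scale; Tbx6, the direct activator of Mesp2, averaged 45.0 CPM over the 10 iPSM and 0.235 CPM over the 10 ESC libraries (7.26 ± 0.454, SE, edgeR adjusted p = 5.86e-09), and Msgn1, a bHLH factor of the presomitic mesoderm, averaged 40.4 and 0.0133 CPM. All 10 presomitic mesoderm markers given earlier for these libraries are among the 17, and 9 of the 10 were higher. The count of the 17 is therefore no separate result. Of 14 boundary effectors 8 were higher and 1 lower, with a median of 1.43. Of 16 tested genes of somite compartments and derivatives 3 were higher and 6 lower, with a median of -0.77, and of 10 corepressors and partners 3 were higher and 4 lower, with a median of -0.28. With 60% of all genes called, the number of calls in the last 3 lists is not particular to them. Pax3 and Pax7, of the dermomyotome, were among the 3 somite genes that were higher, at means of 0.985 and 1.14 CPM over the 10 iPSM libraries.

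In the iPSM control line 3 of the 10 members, Foxc2, Meox1 and Mesp1, were above all 8 clone libraries in both its untreated and its dox library. Foxc2 was 1.16 and 1.07 CPM, against 0 to 0.242 CPM in the 8 clone libraries, a pooled ratio of 15.9 (exact 95% interval 10.3 to 25.3, counting error only). Meox1 was 1.73 and 1.19 CPM against 0.111 to 0.681 CPM in the clones (ratio 4.10, 3.21 to 5.24), and Mesp1 was 0.484 and 0.700 CPM against 0.111 to 0.364 CPM (ratio 2.37, 1.66 to 3.36). Foxc1, no member but the partner of Foxc2 in paraxial mesoderm and named after its values were seen, stood at 14.2 and 16.8 CPM in the control line and at 0.334 to 6.73 CPM in the clones. Tcf15 was at 2.06 and 2.52 CPM against 2.31 to 4.10 CPM, and Meox2 at 0.694 and 0.0700 CPM against 0.0404 to 0.335 CPM. Neither of the 2 control libraries exceeded the clones in the other 5 members. The control line has 1 library per state, so none of these differences has a test. Its untreated library is the one that stood apart, with reads on 69.4% of transcripts. The share of all genes that lie above the 8 clone libraries in this way was not computed. The count of 3 members therefore cannot be called particular to them.

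Some members differed between the untreated and the dox library of the control line. With 1 library per state, dox and differences between libraries cannot be told apart there. In ESC, Mesp2 had 0 counts without and 21 with dox, and the 8 clone libraries had 15 to 42. Tbx18 went from 18 to 56 counts in ESC and from 11 to 0 in iPSM, and Meox2 from 33 to 3 in iPSM, where the untreated library is the one that stood apart. Ripply2 went from 12 to 8 counts in iPSM and from 0 to 1 in ESC, a log2 ratio of -0.36 in iPSM with 2 counts added.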

How the data were processed

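Libraries were stranded total-RNA preparations read as paired ends, per the labels' protocols. The submitters' processing notes name bcl2fastq, STAR 2.7.2a, HOMER and the mm10 build. For each of 55421 transcripts the deposited tables give an estimated count over the gene body in steps of 0.5, without normalisation per the file headers, and the authors' RPKM, which divides by the gene body with introns. Every count was rounded to a whole number, and all 20 libraries were scaled together (TMM) for the CPM printed. All genes were fitted with edgeR 4.0.16 under R 4.3.3 (filterByExpr by group, quasi-likelihood test): 10 libraries as 6 groups per cell type, and 20 libraries as 12 groups between cell types. A gene passed at a two-sided Benjamini-Hochberg adjusted p under 0.05 over all genes tested. SE is the log2 fold change over the square root of F, and 95% intervals use the t distribution of the fit. Exact binomial intervals of count ratios cover counting error only and leave out the spread between clones. They also take each read as a separate molecule, which reads without molecular identifiers cannot show. A count of 0 was read against a floor of 3 counts.

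Libraries that differ only in dox come from 1 clone, so clone numbers pair them. Over 15179 iPSM genes the difference between clones correlated between untreated and dox libraries at 0.303 (Clock/Bmal1) and 0.311 (ClockBmal1DN). Over 15036 ESC genes it was 0.664 and -0.0892. No label says whether clones were cultured independently, so p-values measure the spread between these samples. Alternatives were DESeq2 1.42.0, other size factors, no filter, no control libraries, the clone as a block and each library left out. The 10 members are named in every comparison, with up to 4 passing genes per list and, for members of at least 1 CPM in iPSM, the 3 genes of closest profile. The members and lists were chosen with earlier results of these data known. The fits were tested on simulated data in which changes were planted only in genes with a mean above 1 CPM. Ripply2, with a mean of 0.595 CPM over the 10 iPSM libraries, lies below that.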

Additional observations from a re-analysis of the deposited data

Results flagged for a closer look

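Ripply2 in the untreated ESC clones had 1 library far from the others: Clock/Bmal1 clone 7 held 0.0992 CPM (5 counts), while clones 1, 5 and 6 had no read. Such a gap was looked for in the 4 untreated clones of each cell type for each of the 10 genes. Chance gives it in about 1 of 20 groups of normally distributed values, a rate that need not hold for counts this near 0.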

How the results depend on the processing

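The 32 log2 fold changes of members given above were recomputed under the alternatives, 346 values in all, of which 324 kept their direction and side of the threshold. The 11 that changed sign all belonged to values that had not passed. With the replicate block (clone), Mesp2 in ESC Clock/Bmal1 clones was -0.0016. Over the fits that leave out 1 library each, the ranges were, in iPSM Clock/Bmal1 clones, -1.19 to 0.19 for Mesp1, -1.44 to 1.08 for Ripply1 and -0.14 to 0.14 for Tcf15. In ESC they were -0.76 to 0.70 for Mesp2 (Clock/Bmal1), -2.0 to 0.56 for Foxc2 (ClockBmal1DN) and -0.53 to 0.17 for Tcf15 (difference of transgenes). For iPSM over ESC they were -1.21 to 0.0758 for Meox1 untreated and -0.43 to 5.55 for Ripply2 (difference of Clock/Bmal1 effects).

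The number of members that passed went from 1 to between 0 and 1 for Clock/Bmal1 in iPSM with 1 library left out. For the difference of transgenes in iPSM it went from 0 to 1 with no filter, with DESeq2 and with the replicate block (clone), and to between 0 and 1 with 1 library left out. Counts over all genes moved more. With no filter on low counts, passing genes numbered 597 for Clock/Bmal1, 8 for ClockBmal1DN, 280 for their difference and 221 between untreated lines in iPSM, 537, 463, 410 and 45 in ESC, and 87 for the difference between cell types. With DESeq2 they numbered 154 (difference) and 25 (untreated lines) in iPSM, 353, 7, 126 and 9 for the same 4 comparisons in ESC, and 16 between cell types. With the replicate block (clone) they numbered 132 (difference) in iPSM, 158 (Clock/Bmal1) and 25 (difference) in ESC, and 2 between cell types, and the block changed no other call on a member. With 1 library left out, the ranges in iPSM were 83 to 678 (Clock/Bmal1), 1 to 2 (ClockBmal1DN), 16 to 167 (difference) and 0 to 1779 (untreated lines). In ESC they were 7 to 90, 0 to 2, 0 to 8 and 1 to 2. The iPSM maxima for Clock/Bmal1, the difference and the untreated lines all came without untreated clone 12, and the cause was not tested.

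Depth limited 3 of the 10 members: at 38.2 to 57.3 M counts per library, Uncx in both cell types and Mesp1 and Ripply2 in ESC were too low to test. Leaving ESC clones 6 and 7 out was chosen after seeing the data.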

Other observations

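Of 14 genes that shape the boundary but are not among the 10 members, 8 were higher in untreated iPSM than in untreated ESC clones, 1 was lower and 5 did not pass, beside 31.3% of all genes higher and 28.8% lower. Cdh2, the cadherin that joins somite cells, averaged 332 CPM over the iPSM and 23.2 CPM over the ESC libraries (log2 fold change 3.67 ± 0.220, SE, n = 4 clones each, edgeR adjusted p = 3.98e-09). Epha4, an ephrin receptor of the boundary, averaged 210.0 and 73.6 CPM, and Heyl, a Notch target, 0.514 and 0.0480 CPM. The fibronectin receptor subunit Itga5 was the 1 of 14 that was lower, at 14.9 against 36.9 CPM. Of the genes that follow in the somite, Twist1, which fibroblasts also express, averaged 0.954 CPM in iPSM and 6.01 CPM in ESC. Of the partners of RIPPLY and MESP proteins, Tcf12 averaged 370 and 70.9 CPM and Tcf4 271 and 41.0 CPM, while the T-box gene Tbx15 averaged 0.477 and 6.86 CPM.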
